A study of Mus musculus with 23 samples.

Results

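Igf2bp1, Igf2bp2 and Igf2bp3, which encode the insulin-like growth factor 2 mRNA-binding proteins, were followed together with Lin28b and Hmga2 in branched pancreatic cancer organoids of the mouse. These 5 genes were taken by symbol from the 27207 genes of the count table, and all 5 were present in it. They were chosen by their levels in KPC and KC organoids, with the difference between them already known, so their values in that comparison are given as a description and without a test. The series held 23 bulk RNA libraries, 20 from a KC tumour line and 3 from a KPC tumour line. KC cells came from a mouse with Ptf1a-Cre, and KPC cells from a mouse with Pdx1-Cre and Trp53 floxed on both copies. Each genotype was a single primary line, so genotype, Cre driver and line of origin cannot be told apart.

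In the first batch, KC cells were grown as a 2D culture on plastic (n = 6), in Matrigel to day 13 (n = 3), and in floating collagen gels to day 7 (n = 3) and day 13 (n = 5). In floating collagen, day 7 belongs to the extension phase, in which branches grow out, and day 13 to the phase of lumen formation. The second batch held KC (n = 3) and KPC (n = 3) organoids in floating collagen at day 13. No separate mice stand behind the libraries of a group, so the p-values measure only the spread between these libraries of one line. The authors give the Matrigel and collagen groups of the first batch as independent or individual experiments. For 2D and the second batch the spread may be technical. Levels are given as counts of unique molecular identifiers (UMIs) or as CPM, counts scaled to a common library size, after TMM scaling, and a gene was called where its Benjamini-Hochberg adjusted p in the edgeR quasi-likelihood test was under 0.1.

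The 3 Igf2bp proteins are cytoplasmic RNA-binding proteins that hold on to their client transcripts, protect them from decay and set where and when they are translated. Igf2bp1 and Igf2bp3 are called oncofetal because they are abundant in the embryo, largely silent in most adult tissues and present again in many tumours, whereas Igf2bp2 stays on in many adult tissues. Lin28b is an RNA-binding protein that blocks the maturation of let-7 microRNAs. Hmga2 is an architectural chromatin protein of embryonic and transformed cells, and its long 3′ UTR is a textbook target of let-7. Let-7 is in turn known to repress Lin28b and the Igf2bp genes, and the 5 genes are therefore often described as one oncofetal axis.

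What the 5 genes share beyond their symbols can be read in their transcripts. All 9 mature let-7 family names in RefSeq (GRCm38.p6) carried the same seed, here in capitals at bases 2 to 8, and 4 of them are shown because they differ from each other only outside it.
mmu-let-7a-5p: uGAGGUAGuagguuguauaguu
mmu-let-7g-5p: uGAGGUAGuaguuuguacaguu
mmu-let-7i-5p: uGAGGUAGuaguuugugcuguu
mmu-miR-98-5p: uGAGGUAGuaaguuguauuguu

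The complement of the seed, CTACCTC, was searched on the sense strand of the longest annotated 3′ UTR of each gene (GRCm38, GENCODE). The UTRs of Igf2bp1 (6337 bases), Lin28b (4445 bases) and Hmga2 (3014 bases) each held 4 matches, and those of Igf2bp2 (1784 bases) and Igf2bp3 (2119 bases) held 1 each. Among 21022 genes with a 3′ UTR, whose median UTR length was 961 bases, 9.02% held at least 1 match and 0.0571% held 4 or more. The matches in the 4 genes that were measurable here are shown with the complement of the seed in capitals. All lie on the minus strand of GRCm38.
Igf2bp1, chr11:95961778-95961800: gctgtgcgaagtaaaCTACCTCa
Igf2bp1, chr11:95959357-95959379: cagcagtgctattaaCTACCTCa
Igf2bp1, chr11:95958763-95958785: gtataaatggatgaaCTACCTCa
Igf2bp1, chr11:95958140-95958162: acttttggttttaatCTACCTCt
Igf2bp2, chr16:22059473-22059495: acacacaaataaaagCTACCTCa
Igf2bp3, chr6:49086787-49086809: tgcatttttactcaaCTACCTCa
Hmga2, chr10:120364224-120364246: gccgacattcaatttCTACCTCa
Hmga2, chr10:120362987-120363009: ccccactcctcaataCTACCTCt
Hmga2, chr10:120362549-120362571: ctgatttgcaaggaaCTACCTCc
Hmga2, chr10:120361691-120361713: aatcaaaacacactaCTACCTCt
A match in letters is a description of the sequence and not evidence that a site is used.

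Library totals ran from 1221451 to 2471058 UMIs, so 3 counts corresponded to between 1.16 and 3.22 CPM. In 2D culture, replicates 1 to 3 stood apart from replicates 4 to 6, with correlations of log2 CPM between 0.917 and 0.934 across the split and between 0.963 and 0.983 within it, and results that rest on 2D are therefore given for both sets. Trp53, the gene deleted in KPC, had 21, 18 and 24 counts in the KPC libraries and 79, 70 and 72 in the KC libraries of the same batch, a log2 fold change of −2.01 (SE 0.383, edgeR adjusted p = 0.000539). Which Trp53 exons were removed is not given in the sources used here, so this 3′-end count agrees in direction with the labels without reading the deletion itself. All 10 ductal epithelial markers were counted in every group, with sums between 8707 and 16230 CPM. In the second batch these sums lay between 14342 and 16230 CPM in KC and, without overlap, between 11785 and 13548 CPM in KPC. Of all tested genes, 18.5% were likewise lower in KPC with no overlap. The markers did not move together. By edgeR, Epcam was called higher in KPC (0.59, SE 0.205, adjusted p = 0.0548), Krt19 lower (−0.73, SE 0.171, adjusted p = 0.00403), and 8 were not called. The share called was 20%, beside 19.9% of all tested genes. The fibroblast markers summed to between 49.7 and 66.6 CPM in KC and between 34.8 and 53.0 CPM in KPC of the second batch, and the endothelial markers to at most 2.67 CPM in any library. Immune markers summed to between 18.7 and 21.2 CPM in KC and between 5.99 and 12.1 CPM in KPC, and acinar and endocrine markers to between 9.33 and 15.2 CPM and between 13.4 and 18.6 CPM. The part of these cell type markers in the results was not tested.

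Igf2bp1, which stabilises Myc and other client transcripts, was counted in every KPC library and was at or near 0 in every KC library. The 3 KPC organoid libraries had 68, 78 and 86 counts, a level of 45.2 ± 1.64 CPM (SD, n = 3). The 3 KC libraries of the same batch had 2, 1 and 0 counts (0.674 ± 0.662 CPM, SD, n = 3). The groups were far apart, and no KC library of either batch came near the KPC range. Pooled over libraries, the KPC level was 67.0 times that of KC, with a 95% counting interval from 22.6 to 327 that rests on only 3 KC counts. Against all 20 KC libraries, in which 14 had at least 1 count and the highest had 4, the ratio was 67.6 (44.7 to 107). These intervals, and those given below for the other members, cover counting error only and are not a test of the difference. They leave out the spread between libraries. Within KC and KPC of the second batch, library pairs spread more than counting alone gives (chi-square per degree of freedom 1.59 to 2.48).

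Igf2bp3, the paralog most often described as a tumour antigen, showed the same contrast. It had 93, 121 and 126 counts in KPC (66.1 ± 6.52 CPM, SD, n = 3) against 3, 3 and 6 counts in KC of the same batch (2.69 ± 1.13 CPM, SD, n = 3). Every KPC library lay above every KC library, and 18.9% of all tested genes were likewise higher in KPC with no overlap between the groups. The pooled ratio was 24.5 (13.9 to 48.0) within the batch. It was 65.2 (46.5 to 93.7) against all 20 KC libraries, whose highest count was 6. KC organoids at day 13 of the first batch stood at 0.948 ± 0.736 CPM (SD, n = 5).

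Igf2bp2, the paralog that is widely present in adult tissue, was counted in all 23 libraries. It had 83, 93 and 96 counts in KPC (53.1 ± 2.49 CPM, SD, n = 3) and 51, 57 and 67 counts in KC of the second batch (39.4 ± 5.45 CPM, SD, n = 3), a pooled ratio of 1.35 (1.11 to 1.64). The groups did not overlap within the batch, but KC libraries of the first batch reached 52.4 CPM, which is inside the KPC range. Hmga2 had 203, 189 and 235 counts in KPC (122 ± 8.42 CPM, SD, n = 3) and 109, 100 and 157 counts in KC (82.2 ± 19.5 CPM, SD, n = 3), a pooled ratio of 1.48 (1.30 to 1.69). These groups did not overlap either, and KC organoids at day 7 of the first batch lay far above both. Against all 20 KC libraries, the pooled ratio was 1.22 (1.07 to 1.39) for Igf2bp2. For Hmga2 it was 0.766 (0.705 to 0.832), so that KPC was lower than KC in that comparison.

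In KPC against KC, 19.9% of the 11144 tested genes were called, 9.58% as higher and 10.4% as lower. The median log2 fold change of all tested genes was 0.01 with TMM scaling and 0.13 with library size alone. The fitted log2 fold changes of the members were 5.93 for Igf2bp1, 4.58 for Igf2bp3, 0.57 for Hmga2 and 0.43 for Igf2bp2. The first pair depends on the prior count, because KC was at or close to the floor of 3 counts. Igf2bp1 came to 6.79 without KC replicate 1 and to 5.37 without KC replicate 3, and Igf2bp3 to 4.96 without KC replicate 3. Of the 5 members, Igf2bp2 and Hmga2 would have passed the filter on low counts without the KPC libraries, Igf2bp1 and Igf2bp3 passed it only through them, and Lin28b did not pass it.

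**Figure D1:**
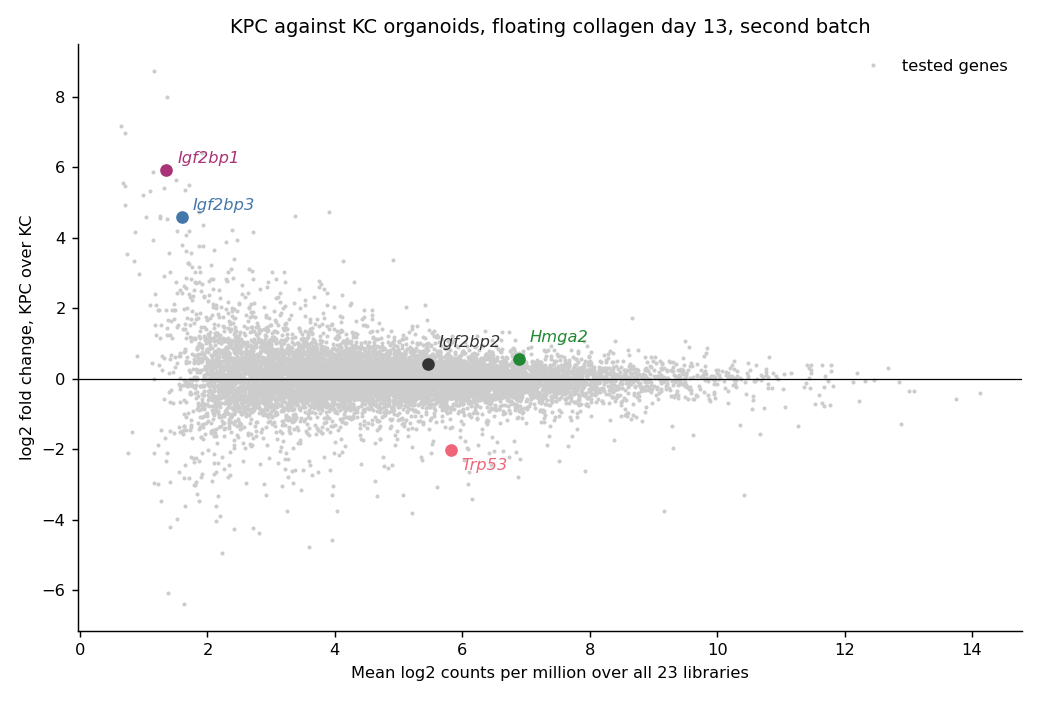
Each grey point is one of the 11144 tested genes, with its mean log2 CPM over the 23 libraries on the x axis and the fitted log2 fold change of KPC over KC in the second batch on the y axis. Igf2bp1 (5.93) and Igf2bp3 (4.58) lie at the upper left among genes of low mean level, Hmga2 (0.57) and Igf2bp2 (0.43) lie close to the zero line, and Trp53 lies at −2.01.

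Lin28b was almost absent from these libraries. A single UMI was found, in KPC replicate 2, and the count was 0 in the other 2 KPC libraries and in all 20 KC libraries. Counts of 0 allow up to 3 counts per library, or 1.16 to 3.22 CPM, so a difference in Lin28b was not detectable at this depth. Its paralog Lin28a was not analysed here. The label of the group as an axis with Lin28b thus has no measurable Lin28b transcript behind it in these cultures.

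Because the 3 Igf2bp proteins are close paralogs, their make-up was described within each library. In the 20 KC libraries, Igf2bp2 supplied between 91.1% and 100% of the summed Igf2bp counts. In the 3 KPC libraries the share of Igf2bp2 was 32.3% ± 1.49 (SD, n = 3), that of Igf2bp3 was 40.2% ± 1.79 and that of Igf2bp1 was 27.5% ± 0.684. The plain shares are the ones to set beside each other, because UMIs of 3′-end libraries do not need a division by transcript length. Divided by exon length all the same, the KPC shares were 36.0% for Igf2bp2, 40.6% for Igf2bp3 and 23.4% for Igf2bp1. All 3 paralogs were thus present at levels of the same order in KPC, whereas KC expressed essentially one of them. The summed level of the family was 164 ± 9.58 CPM (SD, n = 3) in KPC and 42.8 ± 5.79 CPM (SD, n = 3) in KC of the same batch. The shares follow from the same counts as the comparison above and add no independent evidence to it.

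**Figure D2:**
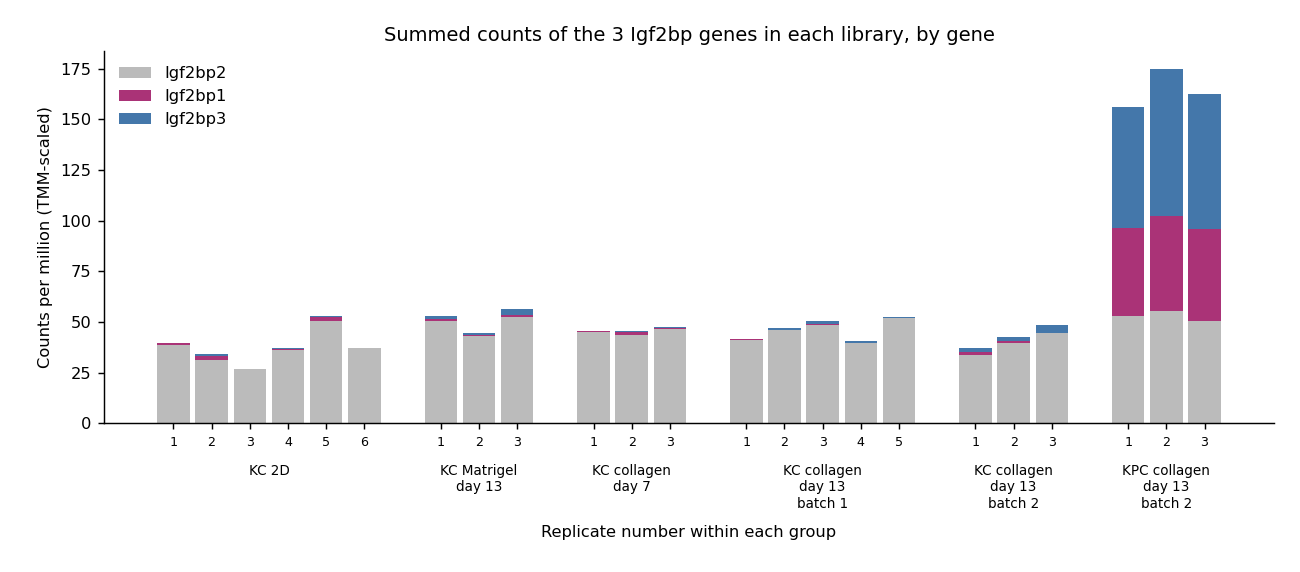
Each bar is one library, with its replicate number below and the stacked CPM of Igf2bp2 (grey), Igf2bp1 (purple) and Igf2bp3 (blue) on the y axis. The 20 KC bars are almost wholly grey in each culture condition, and the 3 KPC bars, at 156 to 175 CPM in all, show 3 bands of similar height.

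The members were chosen on the KPC against KC contrast, and the contrasts between culture conditions of the first batch, whose levels were in view at the choice, were tested. Igf2bp1 and Igf2bp3 stayed at the floor in each of them. Igf2bp1 had 0 to 4 counts in 2D, 3, 1 and 2 counts in Matrigel, 1, 4 and 1 at day 7 in collagen, and 1, 0, 1, 0 and 0 at day 13. Igf2bp3 had 0 to 1 counts in 2D, 4, 2 and 5 counts in Matrigel, 0, 1 and 1 at day 7 in collagen, and 0, 2, 4, 3 and 1 at day 13. The libraries of these groups overlapped in most pairs. The highest Igf2bp3 count of the batch was 5, and its Matrigel libraries lay above those at day 7, as did those of 28.5% of all tested genes. edgeR called Igf2bp1 in 1 of the 6 contrasts of this batch (2D against collagen day 13, adjusted p = 0.0807, where 49.6% of all tested genes were called). It called Igf2bp3 in 2 of them, 2D against Matrigel (adjusted p = 0.0269, 42% of all genes called) and Matrigel against collagen day 7 (adjusted p = 0.0238, 50.6% called), the latter on 11 counts against 2. Both genes were in the tested set only through the KPC libraries, and nothing is read from these calls. No fold is given for values so close to the floor. The number of calls ranged from 0 to 2 for Igf2bp1 and from 0 to 4 for Igf2bp3 as single libraries were left out, and both Igf2bp3 calls were lost without Matrigel replicate 3. Neither gene came near its KPC level in any of these 4 culture conditions.

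Igf2bp2 varied little between conditions. In the order of its group means, KPC stood at 53.1 CPM, KC in Matrigel at 48.7 ± 4.87 CPM (SD, n = 3), KC in collagen at day 13 of the first batch at 45.4 ± 5.14 CPM (SD, n = 5) and at day 7 at 45.0 ± 1.54 CPM (SD, n = 3), followed by KC of the second batch at 39.4 CPM. The 2D cultures were last, at 36.6 ± 8.08 CPM (SD, n = 6), with a lowest value of 26.6, a median of 36.6 and a highest of 50.4 CPM. Neighbours in this order differed by no more than the larger of their SDs, apart from KC at day 7 and KC of the second batch, which come from different batches and were not compared by a test.

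The single values show how far the groups overlapped. Igf2bp2 was at 50.4, 43.2 and 52.4 CPM in Matrigel, at 45.1, 43.4 and 46.5 CPM at day 7, and at 41.3, 46.0, 48.3, 39.4 and 52.0 CPM at day 13. Between day 7 and day 13 the log2 difference was −0.01 (SE 0.143, adjusted p = 0.955), while 55.1% of tested genes were called in that comparison. Matrigel differed from collagen day 13 by 0.10 (SE 0.143, adjusted p = 0.783) and from day 7 by 0.11 (SE 0.159, adjusted p = 0.607), with backgrounds of 12.9% called (6.62% higher and 6.29% lower) and 50.6% called. The 3D conditions therefore held no called difference in Igf2bp2.

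In 2D, Igf2bp2 was called lower than in Matrigel (log2 fold change −0.38, SE 0.144, adjusted p = 0.0457) and than in collagen at day 13 (−0.28, SE 0.127, adjusted p = 0.0813), and missed the threshold against day 7 (−0.27, SE 0.144, adjusted p = 0.140). The share of all tested genes called in these contrasts was 42% (21.9% higher and 20.1% lower), 49.6% (26.3% and 23.3%) and 51.2% (26.4% and 24.8%). The 2D libraries overlapped those of each 3D group. The sets of 2D replicates differed: Igf2bp2 was at 32.1 ± 6.09 CPM (SD, n = 3) in replicates 1 to 3 and at 41.2 ± 8.0 CPM (SD, n = 3) in replicates 4 to 6. With replicates 4 to 6 alone both calls were lost (adjusted p = 0.187 and 0.380), and with replicates 1 to 3 alone the contrast with day 7 was called as well (−0.48, adjusted p = 0.0183). The call against Matrigel was also lost without Matrigel replicate 1 or 3 (adjusted p = 0.118 and 0.147). The call against day 13 was lost without 2D replicate 2, 3, 4 or 6 or without day 13 replicate 3 or 5, with an adjusted p of at most 0.170. The contrast with day 7 became a call without 2D replicate 5 (adjusted p = 0.0163).

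Hmga2 followed another course, with its high point in the extension phase. At day 7 in floating collagen it reached 382, 442 and 524 CPM (450 ± 71.0 CPM, SD, n = 3), and at day 13 of the same batch it stood at 66.8, 73.4, 74.7, 94.5 and 59.4 CPM (73.7 ± 13.1 CPM, SD, n = 5). The lowest day 7 library was far above the highest day 13 library, and 25.4% of all tested genes were likewise higher with no overlap. The log2 fold change was 2.61 (SE 0.147, adjusted p = 5.06e-13), with 28.1% of all tested genes called as higher at day 7. Whether more cells with Hmga2 or more Hmga2 transcript per cell stands behind a bulk difference of this kind cannot be told apart.

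In Matrigel at day 13, Hmga2 was at 109, 102 and 114 CPM (108 ± 5.62 CPM, SD, n = 3), above every collagen library of the same day and batch, as were 9.41% of all tested genes. The log2 fold change against collagen day 13 was 0.55 (SE 0.154, adjusted p = 0.0219), and against day 7 it was −2.05 (SE 0.171, adjusted p = 7.25e-10). As single libraries were left out, the adjusted p of the first contrast stayed at or under 0.0935. In 2D, Hmga2 ranged from 87.9 to 136 CPM with a median of 110 CPM. This was above day 13 in collagen (0.58, SE 0.133, adjusted p = 0.00103) and far below day 7 (−2.02, SE 0.139, adjusted p = 5.63e-11). Against Matrigel the 2D level did not pass the test (0.03, SE 0.151, adjusted p = 0.895). The 2D sets stood at 125 ± 10.4 CPM (SD, n = 3) for replicates 1 to 3 and at 98.4 ± 9.31 CPM (SD, n = 3) for replicates 4 to 6. The sign against Matrigel changed to −0.17 with replicates 4 to 6 alone, and the other 2D calls held in both sets.

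In the order of the group means of Hmga2, day 7 in collagen (450 CPM) was first, followed by KPC (122), 2D (112), Matrigel (108), KC day 13 of the second batch (82.2) and KC day 13 of the first batch (73.7). Day 7 stood apart from all others. KPC differed from 2D, and 2D from Matrigel, by less than the larger of their SDs, as did the KC groups at day 13 of the 2 batches, and values from different batches are set side by side without a test. Igf2bp1 and Igf2bp3 were therefore high in the KPC line and at the floor at day 7, whereas Hmga2 had its highest level at day 7 within KC.

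**Figure D3:**
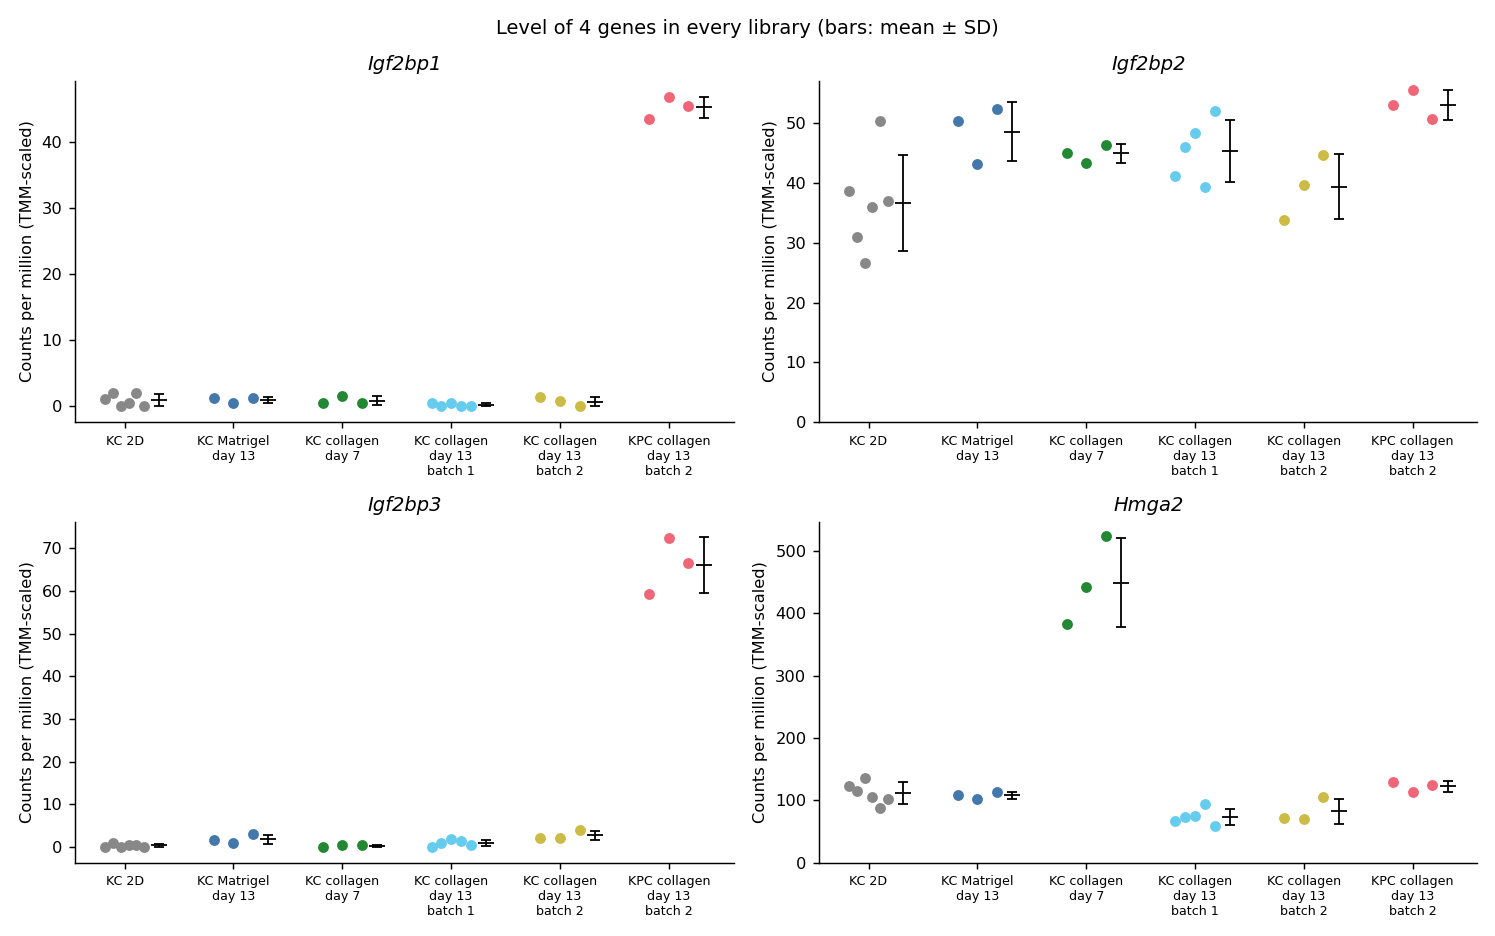
Points are the CPM of single libraries in the 6 groups, and the black bars give the mean and SD of each group, with a separate y axis starting near 0 for each gene. Igf2bp1 and Igf2bp3 are high in the 3 KPC libraries alone, Igf2bp2 lies between 26.6 and 55.7 CPM throughout, and Hmga2 is highest in the 3 day 7 libraries, all above 382 CPM.

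The members lie on 4 chromosomes, and their surroundings were described in KPC against KC. Igf2bp1 is a minus-strand gene at chr11:95957163-96005940 (GRCm38). Its nearest protein-coding neighbours with rows in the table were B4galnt2, which had at most 5.30 CPM in these 6 libraries and was not tested, and Snf8, a subunit of the endosomal sorting machinery, which was higher in KPC (log2 fold change 0.57, SE 0.201, adjusted p = 0.0580). Of the 27 other tested genes within 1 Mb of Igf2bp1, 6 were called higher and 2 lower, with a median of −0.05. Over all tested genes 9.58% were called higher and 10.4% lower, and on chromosome 11 the shares were 10.9% and 9.26%. Gm29202, an antisense gene that overlaps Igf2bp1, had 2.93 ± 2.17 CPM (SD, n = 3) in KPC and none in KC of the same batch. Whether the counting used strand is not given in the sources used here, so reads of the pair may not be told apart.

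Igf2bp3, at chr6:49085223-49214957 on the minus strand, lies on a chromosome whose genes stood higher in KPC as a whole. The 530 other tested genes of chromosome 6 had a median log2 fold change of 0.39, first of 21 chromosomes with the mitochondrial one, and 31.3% were called higher and 4.34% lower. The second chromosome in that order had a median of 0.08. Within 5 Mb of Igf2bp3, 35 other tested genes had a median of 0.45, with 11 called higher and none lower at this threshold. Igf2bp3 did not have the largest fitted log2 fold change of its surroundings, which was 5.54 within 1 Mb and 7.16 within 5 Mb. Those folds rest on KC levels at or near 0. The nearest protein-coding neighbours moved less than Igf2bp3: Tra2a, a splicing regulator, was at 65.8 ± 2.33 CPM in KPC and 51.7 ± 1.40 CPM in KC (SD, n = 3 each; 0.35, SE 0.187, adjusted p = 0.242), and Gpnmb was at or under 2.09 CPM in both. Malsu1, a mitochondrial ribosome factor that overlaps Igf2bp3 on the plus strand, was at 71.8 ± 2.33 CPM in KPC and 52.6 ± 1.02 CPM in KC (0.45, SE 0.340, adjusted p = 0.441). The part of the chromosome-wide difference in the level of Igf2bp3 was not tested.

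The 11 genes called within 5 Mb of Igf2bp3 included Hoxa7, a homeobox gene counted at 9.70 ± 2.38 CPM in KPC and at 0 in all 3 KC libraries of the batch, and Atp6v0e2, a proton pump subunit at 13.5 ± 4.87 CPM against 0.221 ± 0.382 CPM. Whether Hoxa7 and Atp6v0e2 would have passed the filter on low counts without the KPC libraries was not examined. A gene that passed only through them had to differ, so nothing is read from the calls of this pair. Mpp6 was at 166 ± 16.8 CPM in KPC and 76.4 ± 3.80 CPM in KC (log2 fold change 1.11, SE 0.124, adjusted p = 6.05e-07). Ezh2, the catalytic subunit of the Polycomb complex that methylates histone H3, was at 140 ± 16.1 and 88.2 ± 1.31 CPM (0.66, SE 0.151, adjusted p = 0.00323). The remaining 7 were between 0.36 and 0.85 higher on the log2 scale.

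The surroundings of the other members are given in the same way. Igf2bp2 lies at chr16:22059009-22163299 between Senp2 (−0.32, SE 0.186, adjusted p = 0.286) and the splicing regulator Tra2b (−0.49, SE 0.130, adjusted p = 0.0113). Hmga2 lies at chr10:120361275-120476469 between Llph (−0.11, SE 0.174, adjusted p = 0.740) and Msrb3, which had at most 5.99 CPM and was not tested. The medians within 5 Mb were −0.07 over 74 genes around Igf2bp2 and −0.04 over 33 genes around Hmga2. Around Lin28b, 26 genes had a median of −0.18, with none called higher and 4 called lower. On chromosome 10 as a whole, 7.75% of tested genes were called higher and 13.0% lower. Lin28b lies on the same chromosome as Hmga2, at chr10:45376620-45486395, beside Hace1 (−0.31, SE 0.400, adjusted p = 0.682) and Bves, which was at 0 in KC and KPC of the batch. Mir763, a microRNA gene annotated inside Hmga2 on the same strand, had 7.83 ± 3.24 CPM (SD, n = 3) at day 7 and 1.23 ± 0.511 CPM (SD, n = 5) at day 13 of the first batch, and reads of the pair may not be told apart.

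**Figure D4:**
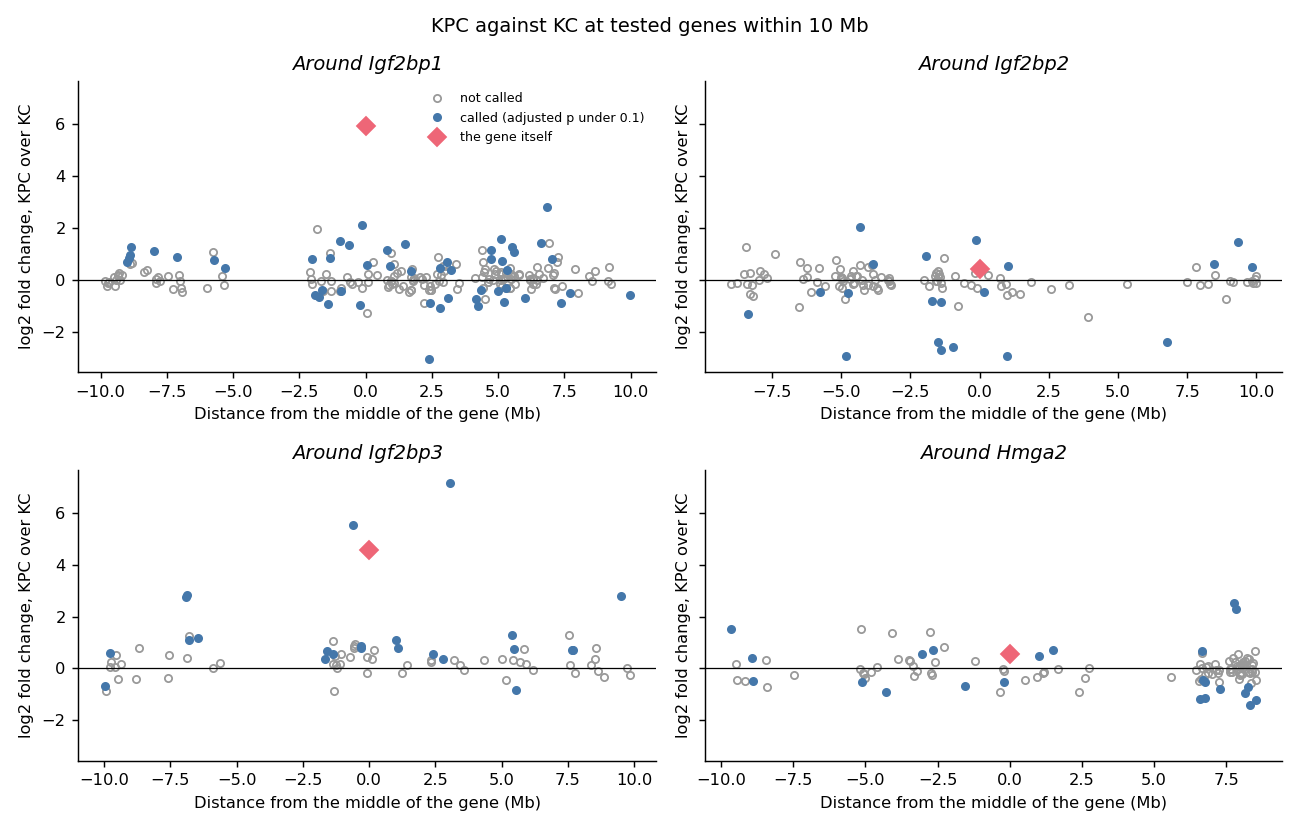
Each point is a tested gene within 10 Mb of Igf2bp1, Igf2bp2, Igf2bp3 or Hmga2, at its distance from the middle of that gene in Mb (x axis) and with its log2 fold change of KPC over KC (y axis). Filled points were called, open points were not, and the diamond is the gene itself. Igf2bp1 (5.93) stands alone above its neighbours, while around Igf2bp3 (4.58) the points lie mostly above 0 and some lie above the diamond.

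The promoter of Igf2bp3 is shown because that gene moved with Igf2bp1 in KPC, and the promoter of Igf2bp2 because it is the paralog that did not move to the same extent. Each spans the start of the gene and the bases before it (RefSeq, GRCm38.p6, minus strand), with motif matches on either strand in capitals. The E-box was searched as CACGTG, a palindrome. The GC box was searched as GGGCGG on both strands. The box CCAAT was searched on both strands as well. The AP-1 site, searched as TGACTCA on both strands, had no match in either promoter. A search of both strands for the TATA box, written TATAAA, found no match in them. A search for the TEAD site, written as GGAATG, also found no match on either strand. None of the matches overlapped.
Igf2bp3, chr6:49214905-49215204: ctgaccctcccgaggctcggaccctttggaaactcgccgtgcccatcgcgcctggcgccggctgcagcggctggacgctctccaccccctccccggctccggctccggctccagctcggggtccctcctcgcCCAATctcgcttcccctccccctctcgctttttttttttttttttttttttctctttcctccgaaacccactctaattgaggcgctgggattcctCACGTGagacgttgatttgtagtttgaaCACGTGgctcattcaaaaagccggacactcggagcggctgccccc
Igf2bp2, chr16:22163250-22163549: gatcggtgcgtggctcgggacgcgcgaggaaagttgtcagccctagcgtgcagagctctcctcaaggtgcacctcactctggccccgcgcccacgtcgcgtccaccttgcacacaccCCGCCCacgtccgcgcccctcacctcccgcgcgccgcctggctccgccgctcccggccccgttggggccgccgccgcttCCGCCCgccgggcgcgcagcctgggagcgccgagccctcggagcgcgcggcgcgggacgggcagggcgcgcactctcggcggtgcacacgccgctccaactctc
The Igf2bp3 promoter held 2 E-boxes and 1 CCAAT box, and the Igf2bp2 promoter held 2 GC boxes. At least 1 E-box was present in 7.15% of 32851 promoters of this length, a CCAAT box in 37.4% and a GC box in 35.7%. The Igf2bp2 promoter had a GC content of 76.7%, that of Igf2bp3 60.3%, and the median over all promoters was 52.7%. These are matches in letters, and no binding was measured.

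The pathways around the 5 genes were then described with 6 lists of genes, from which the members themselves were left out. In the let-7 pathway, the enzymes and carriers that make, load or degrade let-7, 14 of 17 genes in the table were tested in KPC against KC and 3 were called. Xpo5, which exports microRNA precursors from the nucleus, rose in KPC (log2 fold change 0.96, SE 0.298, adjusted p = 0.0302). Ago2, which holds the microRNA in the silencing complex, fell (−0.51, SE 0.160, adjusted p = 0.0320), as did Tut7, which adds uridines to the precursor (−0.50, SE 0.155, adjusted p = 0.0299). Dicer1, which cuts the precursor, differed by −0.05 (SE 0.188, adjusted p = 0.902). The share called was 21.4% beside a background of 19.9%, and only 1 gene was called without KPC replicate 3. Mature let-7 was not measured by these poly(A)-primed libraries.

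Known let-7 targets moved in both directions. Of 37 tested targets, 8 rose, 4 fell and 25 did not pass the test in KPC, and the median log2 fold change was 0.14 beside 0.01 over all genes. The share called in either direction was 32.4% beside a background of 19.9%. Ccnd2, a D-type cyclin, went from 1044 ± 61.6 CPM in KC to 1970 ± 57.3 CPM in KPC (SD, n = 3 each; 0.92, SE 0.179, adjusted p = 0.000728). Mycn, a transcription factor of the Myc family, was called higher (adjusted p = 0.00514), with 7 to 13 counts in KPC against 1 to 2 in KC. Plagl2 (0.81, SE 0.293, adjusted p = 0.0628) and Hmga1, the paralog of Hmga2 (0.77, SE 0.262, adjusted p = 0.0491), also rose. In the opposite direction, the death receptor Fas went from 12.1 ± 2.23 to 1.93 ± 0.581 CPM (−2.60, SE 0.388, adjusted p = 3.19e-05). Fndc3a (−0.91), the phosphatase Dusp1 (−0.78) and the cell cycle phosphatase Cdc25a (−0.51) fell too. Over all tested genes with a scanned 3′ UTR and at least 1 match to the let-7 seed, 1089 in number, the median log2 fold change in KPC was 0.02, and it was 0.01 over the 9309 genes without a match.

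Among 26 tested transcripts known as clients of the Igf2bp proteins, of which Cdk6, Myc and Ccnd1, among others, also stand on the list of let-7 targets, 4 rose and 6 fell in KPC, with a median of 0.10. Abcb1b, a drug efflux pump, went from 4.73 ± 3.06 to 22.7 ± 2.16 CPM (2.25, SE 0.346, adjusted p = 4.84e-05), and Fscn1, an actin-bundling protein of invasive protrusions, from 13.2 ± 4.76 to 45.3 ± 4.28 CPM (1.77, SE 0.297, adjusted p = 0.000129). Srf (0.92, SE 0.309, adjusted p = 0.0446) and Cdk6 (0.45, SE 0.163, adjusted p = 0.0643) rose as well. The hexokinase Hk2 (−0.87, SE 0.214, adjusted p = 0.00616), Vegfa (−0.87, SE 0.144, adjusted p = 0.000123) and Ccng1 (−0.74, SE 0.135, adjusted p = 0.000343) were among those that fell, together with Pkm and Slc2a1. Of those that fell, Hk2, Pkm and Slc2a1 serve glucose uptake and glycolysis, Vegfa is an angiogenic factor, and Ccng1 is a well-known target of p53. The list was thus split, with 38.5% called in either direction beside the background of 19.9%.

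The machinery of m6A, the RNA methylation that Igf2bp proteins can read, was called about as often as all genes. Of 23 tested genes, Mettl16 (0.57, SE 0.174, adjusted p = 0.0285), a methyltransferase, and Fxr2 (0.46, SE 0.167, adjusted p = 0.0659) rose. The demethylase Alkbh5 (−0.85, SE 0.156, adjusted p = 0.000339) and the writer subunit Zc3h13 (−0.60, SE 0.223, adjusted p = 0.0734) fell. The share called was 17.4% beside the background of 19.9%, and 2 genes were called when KC replicate 3, KPC replicate 2 or KPC replicate 3 was left out.

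Within the insulin-like growth factor axis 10 of 15 genes in the table were tested, and Igf2 itself was not analysed here. Igfbp7 (0.80, SE 0.147, adjusted p = 0.000358) and Igfbp4 (0.67, SE 0.187, adjusted p = 0.0151), secreted binding proteins of the ligands, rose in KPC. Igf2r, the receptor that clears Igf2, fell (−0.75, SE 0.255, adjusted p = 0.0490). Igfbp5, another binding protein, had 18 to 74 counts in KPC and 3 to 8 in KC. It passed the filter on low counts only through the KPC libraries, so it had to differ and is described without a test. With Igfbp5, 40% of the 10 genes were called, beside 19.9% of all tested genes, and the 4 calls fell to 2 without KC replicate 2.

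Of 21 other oncofetal and imprinted genes in the table only 6 were tested, and the counts below describe those 6 alone. The imprinted zinc finger gene Peg3 had 82 to 112 counts in KPC and 1 to 2 in KC, and the embryonic transcription factor Sox11 had 24 to 36 and 0 to 2. Both passed the filter only through the KPC libraries, as did 103 of the 11144 tested genes, so they had to differ, and neither a fold nor a p is given. Cldn6, a claudin of embryonic epithelia (2.75, SE 0.359, adjusted p = 5.64e-06), and Tead2, a transcription factor of the Hippo pathway (1.37, SE 0.291, adjusted p = 0.00159), rose in KPC and would have passed without them. Neither of the remaining 2 was called.

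The same lists were read at day 7 against day 13 in KC, where 55.1% of all tested genes were called, 28.1% as higher and 27.1% as lower. Among the let-7 targets 16 rose and 9 fell at day 7. Hmga1 rose beside Hmga2 (2.68, SE 0.150, adjusted p = 4.75e-13), as did the ribonucleotide reductase subunit Rrm2 (2.56, SE 0.221, adjusted p = 8.13e-10). Ccnd2 fell (−1.47, SE 0.170, adjusted p = 9.76e-08), as did Fas (−1.12, SE 0.244, adjusted p = 0.000475). Hmga1 reached 207 ± 12.7 CPM at day 7, but Ccnd2 and Mycn, which were higher in KPC, were lower at day 7.

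Of the client transcripts, 13 rose and 6 fell at day 7, and Abcb1b had the largest difference of the list (2.91, SE 0.268, adjusted p = 2.60e-09). Vegfa (−1.15, SE 0.136, adjusted p = 1.41e-07) and Hk2 (−0.93, SE 0.195, adjusted p = 0.000297) fell. The m6A list held 13 genes that rose and 1 that fell, Alkbh5 (−0.47, SE 0.140, adjusted p = 0.00749), with a median of 0.37 beside 0.01 over all genes. Of the let-7 pathway, 6 genes rose and 2 fell, with Xpo5 at 1.21 (SE 0.211, adjusted p = 3.91e-05) and Tut7 at −0.96 (SE 0.154, adjusted p = 1.23e-05). Of the growth factor axis, 4 rose and 2 fell. Of the 6 oncofetal and imprinted genes 3 rose, with Cldn6 highest (3.998, SE 0.251, adjusted p = 3.53e-12). Another of the 3 was Peg3, which was in the tested set only through the KPC libraries, and nothing is read from its call. Without day 7 replicate 2 the list had 6 calls. The filter on low counts was run anew in that fit, so these need not be the same 6 genes. The genes with a match to the let-7 seed had a median of −0.06 at day 7, and those without one 0.01.

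**Figure D5:**
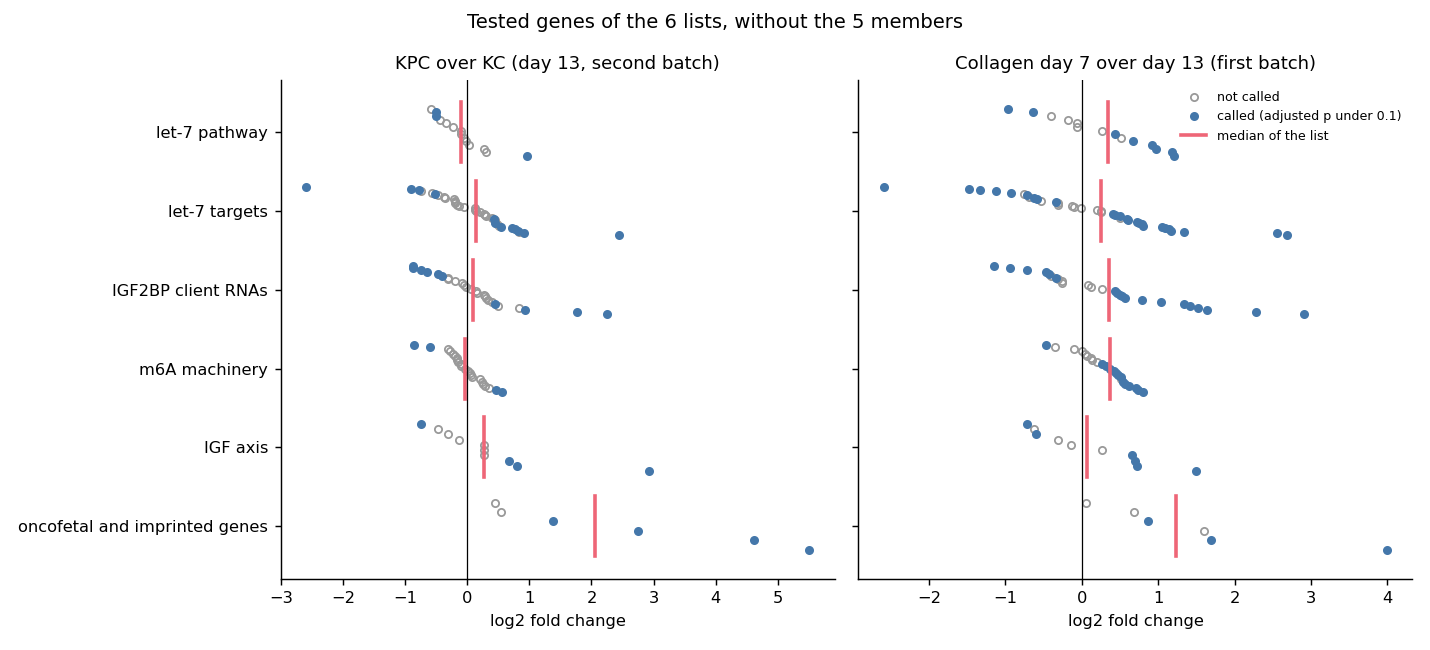
Each row is one list, each point a tested gene of it without the 5 members, and the x axis is the log2 fold change, for KPC over KC on the left and for day 7 over day 13 in collagen on the right. Filled points were called, open points were not, and the red line is the median of the list. In KPC the medians of 5 lists lie between −0.10 and 0.27 with calls on both sides of 0. In the sixth list, Peg3 and Sox11 were tested only because they were high in KPC, which raises its median there.

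Finally, the genes whose log2 CPM followed each member most closely over all 23 libraries were listed, as a description. For Igf2bp1 these were Lypd6 (Pearson r = 0.963), Ppp1r9a (r = 0.962) and the axon guidance receptor Robo2 (r = 0.948). All 3 were at or under 1.07 CPM in every KC library and between 7.92 and 14.8 CPM in KPC. For Igf2bp3 they were the homeobox gene Nkx6-3 (r = 0.940), the cell cycle inhibitor Cdkn2b (r = 0.937) and Gm3880 (r = 0.930). Cdkn2b stood at 147 ± 12.3 CPM (SD, n = 3) in KPC and at 14.4 ± 2.11 CPM (SD, n = 3) in KC of the batch, and Nkx6-3 spread widely in KPC, from 33.8 to 90.7 CPM. These correlations rest on the 3 KPC libraries standing apart from the others.

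Among the genes closest to Hmga2 were the matrix protein gene Fbln2 (r = 0.947) and the intermediate filament gene Vim (r = 0.938), whose correlations rest on the day 7 libraries in the same way. Fbln2 was at 406 ± 119 CPM (SD, n = 3) at day 7 and at 49.1 ± 11.4 CPM (SD, n = 5) at day 13 of the first batch, and Vim at 3183 ± 283 and 832 ± 103 CPM. The KPC libraries had 104 ± 8.76 CPM of Fbln2 and 1165 ± 102 CPM of Vim (SD, n = 3). Igf2bp2 had no gene that followed it as closely, and its first were Trrap (r = 0.789), Mtmr14 (r = 0.786) and Mroh1 (r = 0.783).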

How the data were processed

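The authors deposited raw UMI counts per gene and library, made with the Drop-seq pipeline on GRCm38 with GENCODE gene definitions from 3′-end libraries primed with oligo-dT, and these counts were used as deposited. Positions and 3′ UTRs came from GENCODE on GRCm38, and microRNA and promoter sequences from RefSeq. Genes were filtered with filterByExpr over the 6 groups and scaled by TMM, and one edgeR quasi-likelihood model (edgeR 4.0.16, R 4.3.3) was fitted to all 23 libraries, with Benjamini-Hochberg adjustment over 11144 genes. For correlations, CPM were log2-transformed after adding a prior count (2). The script was tested on simulated data. The members and gene lists were chosen with earlier results of these data known. Genes named were, per list, up to 4 called in each direction with the largest difference in KPC against KC, the neighbours of each member and the 3 closest correlates. Genes named at day 7, the genes around Igf2bp3 and Dicer1 were picked after their values were seen. Alternatives were other scalings, DESeq2 1.42.0, no filter, a threshold of 0.05, the compared groups alone, a replicate block, each library left out, and all 8 KC collagen day 13 libraries. The sets of 2D replicates and the day 7 lists were added after seeing the data. Intervals cover counting error only. Some items that these rules would name are not reported here.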

Additional observations from a re-analysis of the deposited data

How the results depend on the processing

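The direction of Hmga2 and its side of the threshold held under every alternative in 5 of the 6 contrasts of the first batch. The exception was 2D against Matrigel, which was not called in any fit and turned to −0.27 with library size alone, to −0.032 without the filter on low counts, to −0.17 with 2D replicates 4 to 6 alone, and ranged from −0.049 to 0.084 as single libraries were left out. Igf2bp2 at day 7 against day 13, likewise not called, was 0.064 with the replicate block and ranged from −0.062 to 0.053 as single libraries were left out. The replicate numbers did not pair the samples: correlations of the deviations of same-numbered libraries lay between −0.119 and 0.188, with no contrast in which each pair exceeded 0.1. The block changed the call of Igf2bp2 in 2D against day 7 (−0.36, adjusted p = 0.0585) and no other tested call of Igf2bp2 or Hmga2. Igf2bp2 in 2D against day 7 was also called with library size alone (−0.41, adjusted p = 0.0937). Its call against day 13 was lost with DESeq2 (adjusted p = 0.125), without the filter (0.126) and with the compared groups alone (0.119), and the call against Matrigel with the compared groups alone (0.103). With all 8 KC collagen day 13 libraries as the comparison, the log2 fold change in KPC was 6.81 for Igf2bp1 and 5.41 for Igf2bp3.

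Library size alone gave 1 let-7 pathway call and 2 m6A calls in KPC, 8 m6A calls at day 7, and 954 genes in Matrigel against collagen day 13 in place of 1439. Without the filter there were 2 m6A calls and 7 oncofetal and imprinted calls in KPC and 5 of the latter at day 7, and the threshold of 0.05 left 2 m6A calls. As single libraries were left out, KPC calls ranged from 1 to 3 for the let-7 pathway, 2 to 3 for m6A and 2 to 4 for the growth factor axis, day 7 calls from 2 to 6 for the oncofetal and imprinted genes, and Matrigel against collagen day 13 from 901 (without Matrigel replicate 1) to 1427 genes. Library size alone also moved the share of calls that were higher from 48.0% to 67.9% in KPC against KC, from 51.3% to 68.6% in Matrigel against collagen day 13, and from 51.6% to 37.5%, 53.1% to 31.9% and 52.2% to 23.3% in 2D against day 7, day 13 and Matrigel. The cause of these changes was not tested. At 1221451 to 2471058 UMIs per library, Lin28b, and Igf2bp1 and Igf2bp3 in KC, lay at the limit of what could be counted.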
